A study of Rattus norvegicus with 22 samples.

Results

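Livers of Wistar rat embryos were compared with the livers of pregnant Wistar rats at gestational day 20, by the arrays labelled embryo liver and maternal liver of that day. There were 4 arrays of each tissue, 8 of the 22 arrays of the series. Both tissues came from pregnancies under the same 4 conditions, with 1 array for each tissue and condition: control, which the series text names vehicle, EMD 82571 at 50 mg/kg/day (EMD50), EMD 82571 at 150 mg/kg/day (EMD150), and retinoic acid at 12 mg/kg/day. Retinoic acid samples of that day carry the unexplained code RA56. Dams were dosed every day, in 2 spans by the treatment protocol, from day 6 of gestation to day 11 or to day 17, but in the longer span alone by the series text, so the span of each sample is not settled. EMD 82571, which the series title calls a calcium sensitizer, is named MSC1096199 in the series text. The sources used here give no genotype, age or embryo sex, and do not say whether RNA was pooled or a dam or litter shared. An embryo liver and a maternal liver of the same treatment form a pair below, because they share the treatment.

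The liver of a late rat embryo is an organ of blood formation as well as a gland. Developing red cells and white cells fill the space between the hepatocytes, which already secrete plasma proteins, alpha-fetoprotein (Afp) and albumin (Alb) among them. After birth blood formation moves to the bone marrow, and hepatocytes take up the work of glucose production, bile acid synthesis, amino acid breakdown and drug metabolism. In adult female rats growth hormone keeps up a set of female-type liver genes, of which A1bg, encoding a plasma glycoprotein, and Cyp2c12, a steroid hydroxylase, are known examples.

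The promoters of 5 genes that stand for the groups described here are shown, as the RefSeq table for the GRCr8 assembly gives them, from 250 bases before to 50 bases from the transcript start on, 5′ to 3′ on the gene's own strand. Afp and Alb are neighbours whose starts lie 31334 bases apart, and both hold GTTAAT, the core of a binding site of HNF1 factors of hepatocytes, TTGCNNAA, which C/EBP factors can bind, and CCAAT, a site of NF-Y. Alas2, of heme synthesis in red cells, holds AGATAA, a core of GATA factor sites. Ccnb2, a cyclin of mitosis, holds 3 copies of CCAAT and 2 of TTTGAA, a core of cell cycle elements. Cyp2c12 holds the C/EBP motif TTGCNNAA, the GATA motif AGATAA, the cell cycle motif TTTGAA and TATAAA, the letters of a TATA box, which Afp holds too. TTCGCGC, a core of E2F sites, was searched as well and is in none of the 5. Capitals mark every match of these 7 motifs on either strand, no match overlaps another, and a match is a description of the letters only.
Afp (chr14:17875596-17875895, minus strand): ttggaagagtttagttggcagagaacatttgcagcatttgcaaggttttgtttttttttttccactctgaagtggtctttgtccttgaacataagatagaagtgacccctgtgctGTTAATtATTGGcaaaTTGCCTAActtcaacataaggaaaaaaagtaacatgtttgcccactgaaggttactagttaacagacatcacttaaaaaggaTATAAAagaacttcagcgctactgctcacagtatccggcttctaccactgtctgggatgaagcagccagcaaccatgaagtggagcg
Alb (chr14:17906930-17907229, minus strand): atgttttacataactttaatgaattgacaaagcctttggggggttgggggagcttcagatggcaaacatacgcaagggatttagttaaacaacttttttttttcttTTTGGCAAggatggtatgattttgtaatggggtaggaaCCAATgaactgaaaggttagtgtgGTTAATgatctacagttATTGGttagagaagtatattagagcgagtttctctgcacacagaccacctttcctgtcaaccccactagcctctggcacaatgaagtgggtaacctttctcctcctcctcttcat
Alas2 (chrX:22895200-22895499, plus strand): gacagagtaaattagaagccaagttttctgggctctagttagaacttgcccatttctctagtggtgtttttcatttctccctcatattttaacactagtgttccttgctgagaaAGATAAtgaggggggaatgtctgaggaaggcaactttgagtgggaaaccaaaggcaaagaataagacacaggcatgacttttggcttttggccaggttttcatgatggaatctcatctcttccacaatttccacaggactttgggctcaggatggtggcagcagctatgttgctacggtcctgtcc
Ccnb2 (chr8:79981609-79981908, minus strand): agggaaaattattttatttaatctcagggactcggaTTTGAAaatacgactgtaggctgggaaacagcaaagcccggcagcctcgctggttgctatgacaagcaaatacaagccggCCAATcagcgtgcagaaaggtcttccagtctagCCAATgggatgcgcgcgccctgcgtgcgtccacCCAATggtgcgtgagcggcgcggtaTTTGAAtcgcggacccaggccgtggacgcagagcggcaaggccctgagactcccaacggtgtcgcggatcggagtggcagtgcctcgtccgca
Cyp2c12 (chr1:248676985-248677284, minus strand): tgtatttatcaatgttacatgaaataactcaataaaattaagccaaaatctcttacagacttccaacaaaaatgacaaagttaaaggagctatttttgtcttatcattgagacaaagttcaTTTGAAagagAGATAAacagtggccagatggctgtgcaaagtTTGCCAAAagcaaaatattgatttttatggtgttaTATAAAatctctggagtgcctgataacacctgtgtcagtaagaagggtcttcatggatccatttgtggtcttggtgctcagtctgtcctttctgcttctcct

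Among the 27457 promoters of the table, 1 for each symbol, 7.37% held GTTAAT, 10.5% TTGCNNAA, 11.3% AGATAA, 37.7% CCAAT, 18.1% TTTGAA, 14.3% TATAAA and 1.58% TTCGCGC. Among the 8630 promoters of genes measured here the shares were 4.86%, 8.88%, 7.05%, 37.6%, 11.7%, 8.71% and 2.98% in the same order. Promoters of the cell cycle list held CCAAT in 32 of 49, TTTGAA in 17 and TTCGCGC in 9 (65.3%, 34.7% and 18.4%). Red cell promoters held AGATAA in 6 of 27 (22.2%). Promoters of the plasma protein list held TTGCNNAA in 13 of 33, GTTAAT in 5 of 33 and TATAAA in 11 of 33 (39.4%, 15.2% and 33.3%), and those of the P450 list held them in 10, 5 and 11 of 32 (31.2%, 15.6% and 34.4%). No motif was found in 1 group alone. AGATAA was also in 6 of 32 P450 promoters (18.8%), TTTGAA in 9 of 32 P450 and 8 of 33 plasma protein promoters (28.1% and 24.2%), and CCAAT in 14 of 18 cholesterol synthesis promoters (77.8%), a larger share than in the cell cycle list. The motifs and groups were chosen with results of these data known, so these shares are descriptions without a test.

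The deposited values are log2 values of probe sets, and every difference below is embryo liver minus maternal liver on that scale, so that 1 stands for a 2-fold difference. The array medians lay between 8.12 and 8.16 in embryo livers and between 8.09 and 8.13 in maternal livers. Pearson's r over the 15866 probe sets was 0.967 to 0.996 between embryo livers, 0.979 to 0.991 between maternal livers and 0.861 to 0.906 between an embryo and a maternal liver. The difference between the 3′ and 5′ control probe sets of Gapdh, a sign of RNA length, was 0.64 to 0.86 in embryo livers and 0.59 to 0.68 in maternal livers, and its part in the results was not tested. Each difference was fitted with limma with the treatment as a block, and a gene was called at a Benjamini-Hochberg adjusted p under 0.05 over all probe sets. Since every tissue has 1 array per treatment, the error starts from the spread of the tissue difference over the 4 treatments. limma then draws it toward a prior from all probe sets, with 3 residual and 5.59 prior degrees of freedom. Each ± below is a standard error (SE) moderated in this way. Nothing says which arrays come from separate animals, so p-values measure only the spread between these samples, which may be technical.

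Of the 15866 probe sets, 5949 (37.5%) were called, 3042 of them higher in embryo liver (19.2%) and 2907 lower (18.3%). A difference that was also at least 2-fold was found higher for 487 (3.07%) and lower for 918 (5.79%). Counted over 10411 genes, with the probe set of the highest mean standing for each, 20.9% were called higher and 20.4% lower, and 3.66% and 6.37% were called and at least 2-fold. The 4 embryo livers lay all above the 4 maternal livers for 18.2% of genes and all below them for 17.4%. The median difference over all genes was 0.05. Counts of listed genes below are to be read against these shares, and some near-identical genes of large families (P450, sulfotransferase, glucuronosyltransferase and globin genes) may share probe signal, which was not tested.

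**Figure D1:**
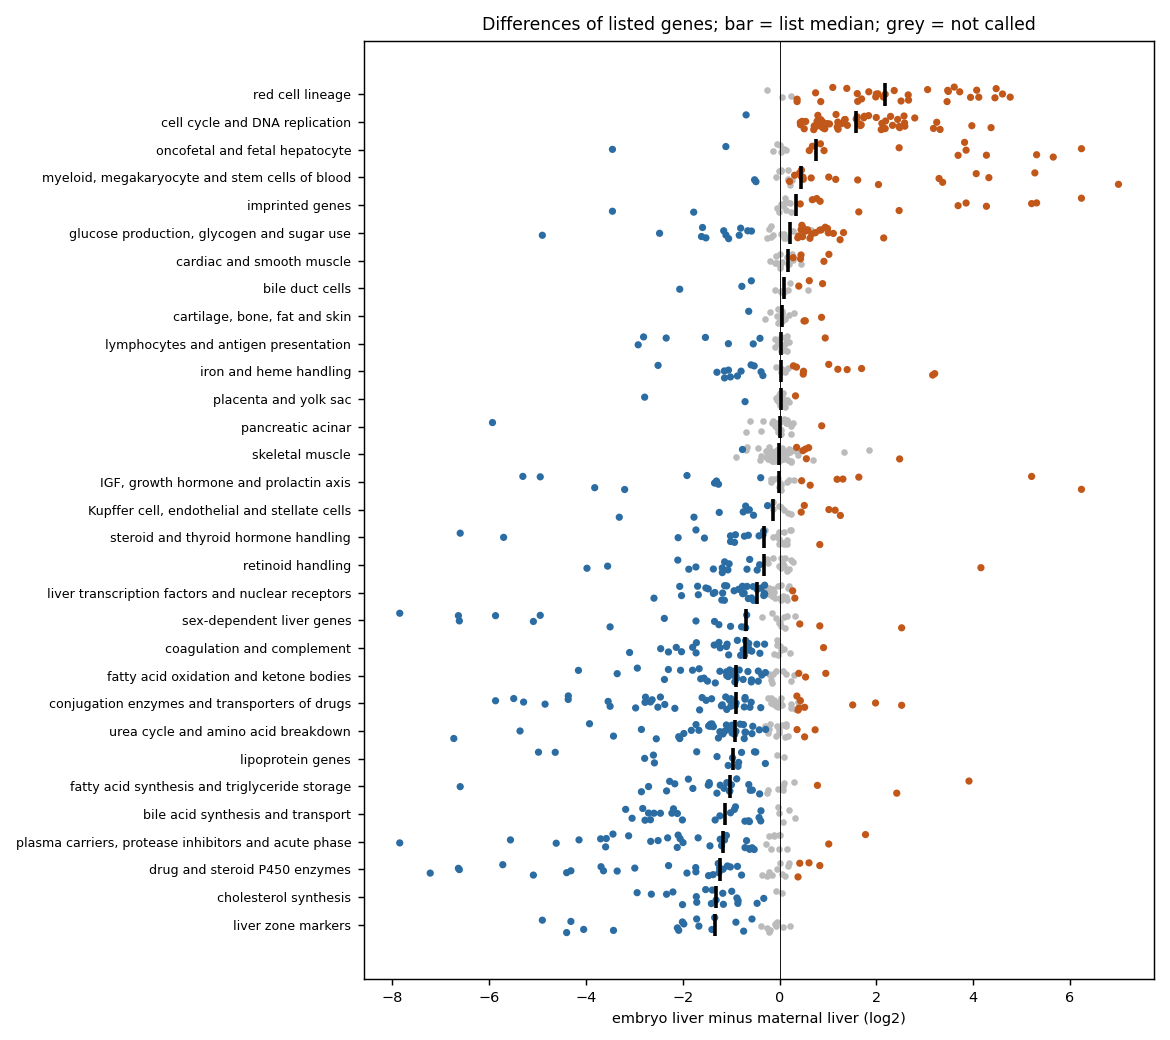
Embryo liver minus maternal liver (log2, horizontal axis) of each gene of 31 lists, with lists ordered by their median (black bar), and called genes in orange (higher in embryo liver) or blue (lower). The red cell list (median 2.18) and the cell cycle list (median 1.58) lie to the right, while the zone, cholesterol and P450 lists lie to the left with medians of -1.34, -1.31 and -1.24.

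Afp marked the embryo livers. It was at 14.67, 14.63, 14.67 and 14.65 in embryo livers of the control, EMD50, EMD150 and retinoic acid groups, against 9.21, 9.27, 8.50 and 9.02 in the maternal livers in the same order. The groups did not overlap, and the difference was 5.65 ± 0.14 (moderated SE, 4 pairs, limma adjusted p = 1.78e-08). Alb was at 14.98, 14.95, 14.96 and 14.93 in embryo livers, against 15.18, 15.22, 15.20 and 15.13 in maternal livers, so the groups did not overlap here either. Its difference of -0.23 ± 0.09 did not pass the test (limma adjusted p = 0.0921). Alb was the highest of all probe sets in 2 of 4 embryo livers and 4 of 4 maternal livers, so its difference may be compressed at the top of the scale, which was not tested. A1bg was at 6.40, 6.29, 6.0 and 6.45 in embryo livers, against 14.22, 14.12, 14.0 and 14.19 in maternal livers. With -7.85 ± 0.09 (limma adjusted p = 8.12e-10) it had the largest fitted difference of all genes. Its embryo values lay within 1 log2 unit of 3 of the 4 embryo bones (at 5.65, 5.78, 5.74 and 8.90, highest with retinoic acid), and whether they were above background was not tested, so that for A1bg, as for other genes low in 1 tissue, the fitted size may understate the difference. By Afp and A1bg every array fell with its labelled tissue.

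**Figure D2:**
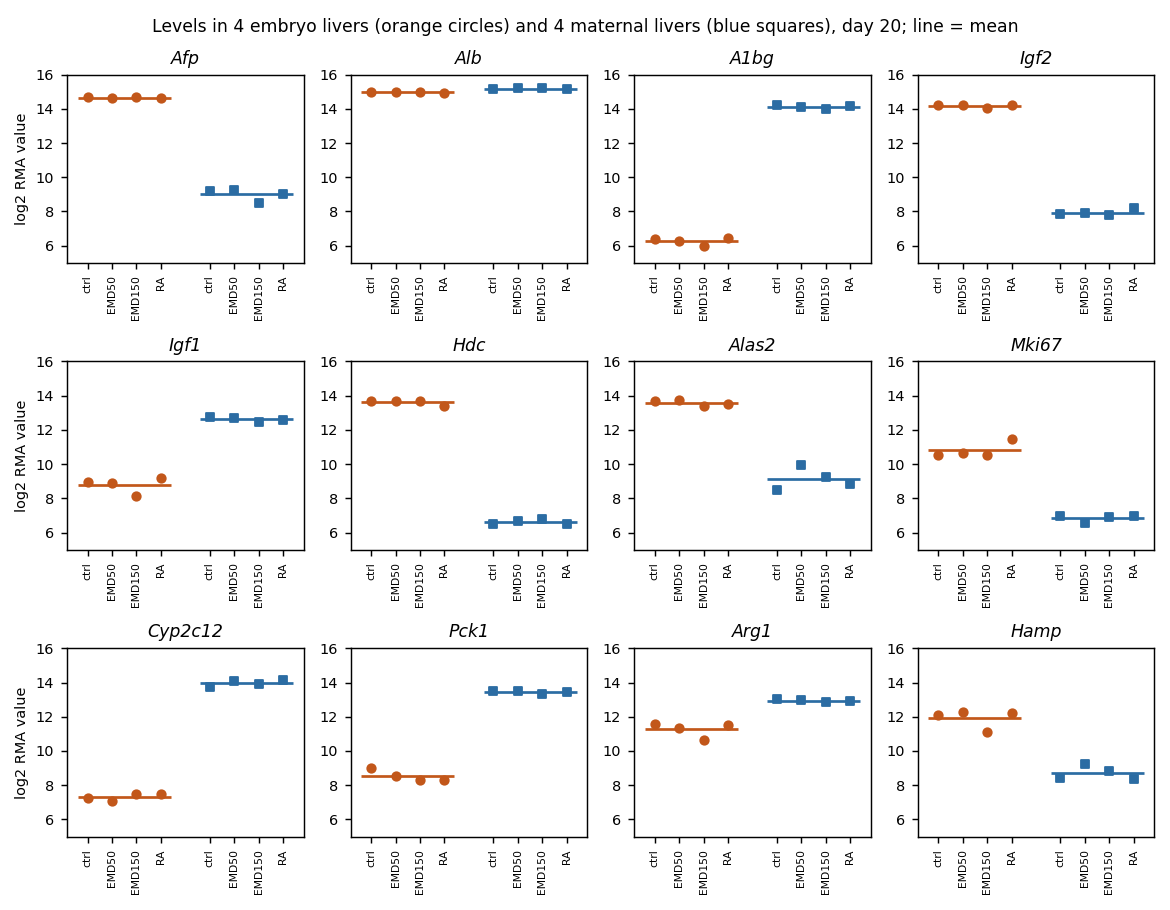
Log2 RMA value (vertical axis) of 12 genes in the 4 embryo livers (orange circles, left) and the 4 maternal livers (blue squares, right), each ordered control, EMD50, EMD150 and retinoic acid, with the group mean as a line. The groups are apart for all 12 genes, by as little as 0.23 in mean for Alb and by 7.85 for A1bg.

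Fetal growth genes were high in embryo liver. Of the 20 measured genes of the oncofetal and fetal hepatocyte list, 12 were higher and 2 lower, with a median difference of 0.76 against 0.05 over all genes. Igf2, the fetal growth factor, was at 14.24, 14.21, 14.07 and 14.20 in embryo livers, against 7.87, 7.90, 7.81 and 8.18 in maternal livers (difference 6.24 ± 0.09, adjusted p = 1.51e-09). All embryo values lay more than 5 log2 units above all maternal ones, while 3 further probe sets named Igf2 differed by only 0.03 to 0.19. H19, a non-coding RNA of the same imprinted locus, was at 14.15, 14.11, 14.12 and 14.04 in embryo livers, against 8.85, 8.14, 8.20 and 9.99 in maternal livers. Its retinoic acid maternal value stood above the other 3 maternal values, and the difference was 5.31 ± 0.28 (adjusted p = 1.37e-06). Grb10, an imprinted inhibitor of insulin and IGF receptor signalling, differed by 5.21 ± 0.12. Cdkn1c, an imprinted inhibitor of cyclin-dependent kinases, differed by 4.27 ± 0.28. Meg3 (3.85 ± 0.14), Gpc3 (3.82 ± 0.18), Mest (3.69 ± 0.18) and Dlk1 (2.47 ± 0.19) were higher in all 4 pairs as well. Gpc3 is a cell surface proteoglycan, and Dlk1 is a marker of fetal hepatoblasts.

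The imprinted list as a whole, which shares 9 genes with the oncofetal list, had 12 of 24 genes higher and 2 lower. Slc38a4, an amino acid transporter and 1 of the lower ones, was at 9.08, 8.96, 8.04 and 9.21 in embryo livers, against 12.36, 12.22, 12.28 and 12.23 in maternal livers, with the EMD150 embryo liver lowest. The other lower gene was Slc22a18, a transporter (-1.77 ± 0.09). The other 10 imprinted genes were not called.

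The 15 largest differences toward embryo liver also held Bex4 (4.53 ± 0.09) and Cdh22, a cadherin (4.49 ± 0.20), while a further probe set named Cdh22 differed by 0.26.

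The circulating growth factor differed in the opposite direction. Igf1, made by the postnatal liver under growth hormone, was at 8.93, 8.90, 8.16 and 9.20 in embryo livers, against 12.73, 12.68, 12.49 and 12.56 in maternal livers (difference -3.82 ± 0.14, adjusted p = 2.21e-07). Every embryo value lay at least 3 log2 units below every maternal value. Ghr, the growth hormone receptor, was at 7.04, 7.02, 6.71 and 7.06 in embryo livers, against 11.92, 12.15, 12.16 and 12.82 in maternal livers (-5.30 ± 0.14, adjusted p = 2.9e-08). Prlr, the prolactin receptor, was at 7.62, 7.54, 7.85 and 7.61 in embryo livers, against 12.01, 12.16, 12.74 and 13.48 in maternal livers (-4.94 ± 0.21, adjusted p = 4.07e-07). Igfals, the subunit that holds IGFs in serum, differed by -3.20 ± 0.12, and the growth hormone targets Socs2 and Cish by -1.30 ± 0.09 and -1.26 ± 0.12. Igfbp1 and Igfbp2, binding proteins of IGFs, were higher by 1.19 ± 0.11 and 1.31 ± 0.16, and Igf2r, which takes IGF2 up for degradation, by 1.64 ± 0.12. In this list of 27 genes 7 were higher and 9 lower.

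Embryo bone of the same treatments was used to see which of these genes were high in another embryonic organ. Both comparisons share the embryo liver arrays, so only the values are set side by side. Against embryo bone, 23.4% of all genes were called higher in embryo liver and 22.6% lower. Igf2 was at 14.38, 14.15, 14.25 and 14.38 in the 4 bones (control, EMD50, EMD150, retinoic acid) and H19 at 13.94, 13.72, 14.08 and 14.14, within 1 log2 unit of the embryo livers. Embryo liver minus embryo bone was 0.14 ± 0.15 for Grb10, -0.67 ± 0.13 for Meg3 and -1.84 ± 0.23 for Cdkn1c. Afp was at 12.34, 7.82, 7.66 and 7.58 in the bones, and Hdc, histidine decarboxylase, at 8.71, 6.76, 7.05 and 6.80. The control bone was higher for both, and Alb was at 13.60, 10.70, 9.44 and 13.60 in the 4 bones, highest in the control and retinoic acid bones.

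Genes of red cells were higher in embryo liver. Of 35 measured red cell genes, 32 were higher, 28 of them at least 2-fold, and none was lower, with a median difference of 2.18. The 4 embryo livers lay above all maternal livers for 31 of the 35. Summed over the list on the linear scale, the level was 128820 to 137790 in embryo livers and 27023 to 34689 in maternal livers. Ahsp, the chaperone of alpha-globin, was at 12.54, 12.65, 12.81 and 12.86 in embryo livers, against 7.69, 8.03, 8.24 and 7.84 in maternal livers (4.77 ± 0.10, adjusted p = 1.09e-08). Hemgn, a nuclear protein of blood progenitors, was at 9.77, 9.99, 10.47 and 10.69 in embryo livers, against 5.70, 5.55, 5.71 and 5.54 in maternal livers (4.61 ± 0.16, adjusted p = 1.43e-07). Alas2, whose promoter is shown above and which starts heme synthesis in red cells, was at 13.67, 13.74, 13.41 and 13.49 in embryo livers, against 8.51, 9.94, 9.26 and 8.81 in maternal livers (4.45 ± 0.19, adjusted p = 4.88e-07). In these genes the lowest embryo liver lay more than 3 log2 units above the highest maternal liver.

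Among the globins, the embryonic Hbe1 differed by 4.48 ± 0.13, Hbg1 by 3.06 ± 0.22, Hbb by 2.0 ± 0.14 and Hba-a3 by 2.51 ± 0.14. The membrane skeleton and antigen genes Ank1 (4.07 ± 0.10), Rhag (3.95 ± 0.14), Slc4a1 (3.61 ± 0.08) and Kel (3.49 ± 0.14), and the carbonic anhydrase Car1 (4.12 ± 0.11), were higher, as were the transcription factors Gata1 (2.37 ± 0.13), Tal1 (2.66 ± 0.11) and Nfe2 (3.47 ± 0.13) and the erythropoietin receptor Epor (1.84 ± 0.09). The 3 genes not called were Alad (-0.25 ± 0.10), Sptb and Bpgm (0.24 ± 0.10). In bulk tissue, fewer cells of a type and less RNA per cell cannot be told apart, and this applies to every gene group here.

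Myeloid genes were higher in part. Of 29 genes of myeloid, megakaryocyte and blood stem cells, 18 were higher and 2 lower. Hdc, histidine decarboxylase, which makes histamine, was at 13.71, 13.70, 13.71 and 13.41 in embryo livers, against 6.53, 6.70, 6.81 and 6.49 in maternal livers, the largest difference in the direction of embryo liver (7.0 ± 0.09, adjusted p = 1.31e-09). The neutrophil defensin gene Np4 was at 11.99, 12.25, 11.63 and 12.58 in embryo livers, against 6.74, 6.82, 7.01 and 6.78 in maternal livers (5.28 ± 0.17, adjusted p = 8.1e-08). RatNP-3b, another defensin gene, differed by 5.75 ± 0.10, and Defa5 by 4.32 ± 0.14. S100a9 and S100a8, the calprotectin subunits of neutrophils, were higher by 4.06 ± 0.24 and 3.37 ± 0.29, and Pf4, of megakaryocytes and platelets, by 3.30 ± 0.12. S100a8 was at 8.60, 8.92, 7.63 and 10.03 in embryo livers, and its retinoic acid embryo liver was the highest and its EMD150 embryo liver the lowest.

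Other mast cell genes differed by less than 2-fold. Cpa3 (0.17 ± 0.10) and Kit (0.17 ± 0.10) were not called, and the mast cell proteases Mcpt1 (0.45 ± 0.09) and Cma1 (0.41 ± 0.12) were higher. Csf1r, the receptor of macrophage growth factor, and Ptprc, the pan-leukocyte CD45, were lower by 0.52 and 0.49. A further probe set named Ptprc differed by -0.06.

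Genes of resident liver cells went both ways. Of 21 Kupffer, endothelial and stellate cell genes 5 were higher and 9 lower (23.8% and 42.9%, against 20.9% and 20.4% of all genes). The count of higher genes was thus near the share over all genes. The lower ones included Clec4f, a lectin of Kupffer cells (-1.77 ± 0.10), the complement genes C1qa, C1qb and C1qc of macrophages (-0.62 ± 0.10, -0.70 ± 0.10 and -0.66 ± 0.13), Fcgr2b, an Fc receptor of sinusoidal endothelium (-3.31 ± 0.12), and Kdr, the VEGF receptor of endothelium (-1.25 ± 0.08). The higher ones included the collagens Col1a1 (1.15 ± 0.15) and Col1a2 (1.26 ± 0.09) and smooth muscle actin Acta2 (1.02 ± 0.09). Further probe sets named Col1a1 and Col1a2 differed by 2.33 and 1.81. Cd74, the chaperone of MHC class II, was at 7.94, 7.91, 7.95 and 7.88 in embryo livers, against 11.19, 11.15, 10.59 and 10.44 in maternal livers (-2.92 ± 0.14, adjusted p = 7.56e-07). All embryo values lay below 8, and the class II genes RT1-Da (-2.81 ± 0.12), RT1-Db1 (-2.34 ± 0.13), RT1-Ba (-1.53 ± 0.09) and RT1-Bb (-1.06 ± 0.17) were lower too. A further probe set named RT1-Db1 differed by -0.16. Of 23 genes of lymphocytes and antigen presentation 1 was higher, Nkg7 (0.94 ± 0.11), and 7 lower. Of 13 bile duct genes 3 were higher, Ggt1, Epcam and Muc1, and 3 lower (23.1% each), near the shares over all genes. Without the control pair 1 bile duct gene was higher, and 1581 of all 10411 genes were, against 2173 with that pair.

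Cell cycle genes rose together. Of 57 measured genes of the cell cycle and DNA replication list 56 were higher, 38 of them at least 2-fold, and 1 was lower, with a median difference of 1.58. Mki67, a marker of dividing cells, was at 10.56, 10.68, 10.56 and 11.44 in embryo livers, against 6.95, 6.54, 6.90 and 6.94 in maternal livers (3.97 ± 0.15, adjusted p = 2.21e-07). Ccnb2, whose promoter is shown above, was at 10.78, 10.64, 10.43 and 10.68 in embryo livers, against 7.30, 7.34, 7.21 and 7.41 in maternal livers (3.32 ± 0.09, adjusted p = 2.94e-08). Cdc25b, a phosphatase that starts mitosis, differed by 4.37 ± 0.10. The helicase genes Mcm2, Mcm6 and Mcm7 differed by 2.18 ± 0.09, 2.79 ± 0.09 and 2.33 ± 0.14, the clamp Pcna by 2.47 ± 0.12 and the kinase Cdk1 by 2.44 ± 0.14. The lower gene was Ccnd1, cyclin D1 of the G1 phase, at 8.80, 8.83, 8.46 and 8.91 in embryo livers, against 9.76, 9.70, 9.05 and 9.24 in maternal livers (-0.69 ± 0.12, adjusted p = 0.00167), while Ccnd2 was higher (0.91 ± 0.10). These arrays do not say which cell type carried the cell cycle genes, and red cell genes moved in the same direction.

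Genes of drug and steroid metabolism were lower in embryo liver. Of 39 P450 and reductase genes 25 were lower in embryo liver, 23 of them at least 2-fold, and 4 were higher, with a median difference of -1.24. Cyp2c12 was at 7.25, 7.09, 7.52 and 7.48 in embryo livers, against 13.76, 14.06, 13.93 and 14.12 in maternal livers (-6.63 ± 0.11, adjusted p = 2.44e-09). Cyp2c6v1, Cyp2c7, Cyp3a23-3a1 and Cyp3a9 differed by -7.22 ± 0.13, -6.62 ± 0.18, -5.72 ± 0.14 and -5.09 ± 0.22. Cyp1a2, of caffeine and aromatic amine oxidation, was at 9.03, 8.90, 9.24 and 9.07 in embryo livers, against 13.70, 13.45, 13.33 and 13.35 in maternal livers (-4.40 ± 0.12, adjusted p = 2.8e-08). Cyp2e1, of ethanol oxidation, differed by -4.31 ± 0.14, and Por, the reductase that feeds the P450s, by -1.91 ± 0.22. The male-type Cyp2c13 was not called (-0.37 ± 0.14), with pregnant dams as the adult side.

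The 4 higher P450 genes were Cyp17a1, of androgen synthesis (0.83 ± 0.16), Cyp4a8 (0.61 ± 0.13), Cyp3a2 (0.42 ± 0.14) and Cyp2a3 (0.38 ± 0.09), none of them 2-fold. Of 63 conjugation enzymes and drug transporters 38 were lower and 8 higher. Sult2a2 and Sult2a6, hydroxysteroid sulfotransferases, differed by -5.87 ± 0.18 and -4.84 ± 0.09, the glucuronosyltransferase Ugt2b15 by -5.29 ± 0.15 and the carboxylesterase Ces1c by -5.49 ± 0.14. The 15 largest differences toward maternal liver also held Hsd17b6, a steroid dehydrogenase (-5.70 ± 0.15), Akr1b7, an aldo-keto reductase (-6.03 ± 0.16), Rup2 (-5.38 ± 0.19) and a probe set named Ugt2b (-6.48 ± 0.10). A further probe set named Ugt2b differed by -2.02, and 3 further ones named Rup2 by -7.60 to -3.30. Fmo1, a flavin monooxygenase, was the exception with the largest difference, at 12.03, 11.81, 11.53 and 12.01 in embryo livers, against 9.50, 9.09, 9.25 and 9.44 in maternal livers (2.52 ± 0.10, adjusted p = 2.73e-07). Mgst3 (1.98 ± 0.12) and Gsta3 (1.51 ± 0.22), glutathione transferases, were higher as well. Without the control pair 5 of this list were higher, and without the EMD50 pair 3, against 1581 and 1601 of all 10411 genes. Of 29 sex-dependent liver genes 16 were lower and 3 higher, the female-type A1bg, Cyp2c12, Prlr and Sult2a2 among the lower ones.

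Bile acid genes were lower almost throughout. Of 28 genes of bile acid synthesis and transport 23 were lower and none was higher, with a median difference of -1.12. Cyp7a1, the rate-limiting enzyme of bile acid synthesis, was at 10.27, 10.18, 8.45 and 10.11 in embryo livers, against 12.07, 11.74, 12.25 and 11.38 in maternal livers (-2.11 ± 0.35, adjusted p = 0.00138). The EMD150 embryo liver was the lowest and lay more than 1.5 log2 units under the other 3 embryo livers. Baat and Slc27a5, which conjugate bile acids, differed by -3.05 ± 0.12 and -3.18 ± 0.14. The transporters Slc10a1 and Abcb11, of uptake and export, differed by -2.83 ± 0.23 and -2.67 ± 0.19. Nr0b2, the repressor that answers to bile acids, differed by -2.59 ± 0.15.

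Lipid genes were lower too, with named exceptions. Of 21 cholesterol synthesis genes 19 were lower (median -1.31), and of 17 lipoprotein genes 15 (9 in the fit over all 22 arrays). Of all genes, 1943 were lower over all 22 arrays, against 2124 in the main fit. Of 33 genes of fatty acid synthesis and storage 23 were lower. Of 45 fatty acid oxidation and ketone body genes 32 were lower and 3 higher, with a median of -0.89. Against the maternal livers of day 12, 24 of the 45 were lower and 8 higher, with a median of -0.33. In that fit 2310 of all 10411 genes were lower and 2981 higher. Thrsp, the thyroid hormone responsive lipogenic protein, was at 7.32, 7.11, 7.33 and 7.15 in embryo livers, against 13.95, 14.14, 13.99 and 13.22 in maternal livers (-6.60 ± 0.14, adjusted p = 1.16e-08). Apoa5, a regulator of plasma triglyceride, was at 7.28, 7.42, 7.24 and 7.03 in embryo livers, against 12.48, 12.39, 12.09 and 11.94 in maternal livers (-4.98 ± 0.09, adjusted p = 4.43e-09). Pon1, the paraoxonase of high-density lipoprotein, differed by -4.63 ± 0.14, while Apoa1, its main protein, was at 14.11, 14.16, 14.17 and 14.07 in embryo livers, against 14.45, 14.46, 14.32 and 14.44 in maternal livers (-0.29 ± 0.10, adjusted p = 0.0406). Against the maternal livers of day 12 the difference of Apoa1 was 1.19, and without the control, the EMD50 or the retinoic acid pair it was not called. Ehhadh, of peroxisomal oxidation, differed by -4.16 ± 0.25, and Cpt1a, which admits fatty acids to mitochondria, by -2.05 ± 0.17. Insig2 and Tm7sf2, of cholesterol control and synthesis, differed by -2.94 ± 0.25 and -2.65 ± 0.09.

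Scd2, a desaturase of embryonic tissues, was higher, at 11.98, 12.05, 11.82 and 12.23 in embryo livers, against 6.72, 7.52, 9.55 and 8.64 in maternal livers (3.91 ± 0.39, adjusted p = 7.18e-05). Its embryo values lay within 0.5 of each other, while the maternal values spanned almost 3 log2 units, with the control lowest and EMD150 highest. Scd, the main desaturase of adult liver, was lower by 1.88. Lpl, lipoprotein lipase, low in normal adult liver, was at 10.28, 10.38, 10.32 and 11.11 in embryo livers, against 7.97, 7.51, 7.70 and 9.22 in maternal livers (2.42 ± 0.15, adjusted p = 3.6e-06), and the retinoic acid array was the highest in both tissues.

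Amino acid breakdown was lower in embryo liver, and the urea cycle was split. Of 53 genes 37 were lower and 3 higher, with a median difference of -0.93. Tdo2, which starts tryptophan breakdown, was at 6.44, 6.38, 6.02 and 6.17 in embryo livers, against 12.78, 12.87, 12.98 and 13.31 in maternal livers (-6.73 ± 0.14, adjusted p = 7.58e-09). Tat, tyrosine aminotransferase, differed by -5.36 ± 0.12, and Cdo1, of cysteine breakdown, by -3.93 ± 0.15. In the urea cycle Arg1 was at 11.56, 11.37, 10.66 and 11.54 in embryo livers, against 13.06, 12.99, 12.86 and 12.89 in maternal livers (-1.67 ± 0.14, adjusted p = 2.42e-05), Asl differed by -2.85 ± 0.13 and Ass1 by -0.90 ± 0.14. Cps1, its first enzyme, was not called, with 12.68, 12.55, 12.23 and 12.82 in embryo livers and 12.68, 12.53, 12.73 and 13.20 in maternal livers (-0.21 ± 0.12, adjusted p = 0.192). Otc was not called either, with 10.73, 10.64, 10.33 and 12.12 in embryo livers and 10.36, 10.58, 10.90 and 12.02 in maternal livers (-0.01 ± 0.14, adjusted p = 0.97), and the retinoic acid array was the highest in each tissue. The 3 higher genes were Agxt2 (0.74 ± 0.10), Glud1, glutamate dehydrogenase (0.52 ± 0.09), and Mat2a (0.36 ± 0.09).

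Sugar genes moved in both directions, with 20 of 44 higher and 12 lower. Pck1, the rate-limiting enzyme of glucose production, was at 9.02, 8.54, 8.29 and 8.33 in embryo livers, against 13.52, 13.52, 13.30 and 13.45 in maternal livers (-4.90 ± 0.12, adjusted p = 1.69e-08). Fbp1, further along the same pathway, was lower by 1.52. Hk1, a hexokinase of most tissues, was at 9.57, 9.65, 9.75 and 9.53 in embryo livers, against 7.58, 7.58, 7.43 and 7.31 in maternal livers (2.15 ± 0.09, adjusted p = 4.66e-07). The glucose transporter Slc2a1, of red cells and fetal tissue, was higher by 1.25 ± 0.09, and the glycolytic enzymes Aldoa (1.01 ± 0.16) and Pfkl (1.32 ± 0.12) were higher.

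Some functions have a fetal or general form and a form of adult liver. Mat2a, the general methionine adenosyltransferase, was higher and Mat1a, that of liver, lower (-2.06 ± 0.15). Slc2a1 was higher and Slc2a2, the glucose transporter of hepatocytes, lower, at -0.66 ± 0.18 and in 3 of 4 pairs, the retinoic acid pair being the exception. The red cell form Alas2 was higher and Alas1, of other tissues, lower (-1.06 ± 0.21). Other functions did not split that way. The adult-type glycogen phosphorylase Pygl was higher (0.47 ± 0.13) like the general Pygb (0.86 ± 0.09), the adult-type phosphofructokinase Pfkl was higher, and Pklr, the liver pyruvate kinase, was not called (0.28 ± 0.18, adjusted p = 0.249). Gys2, the liver glycogen synthase, was not called (0.65 ± 0.25, adjusted p = 0.0701), with the retinoic acid pair apart at 1.75 and the control pair at -0.12.

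**Figure D3:**
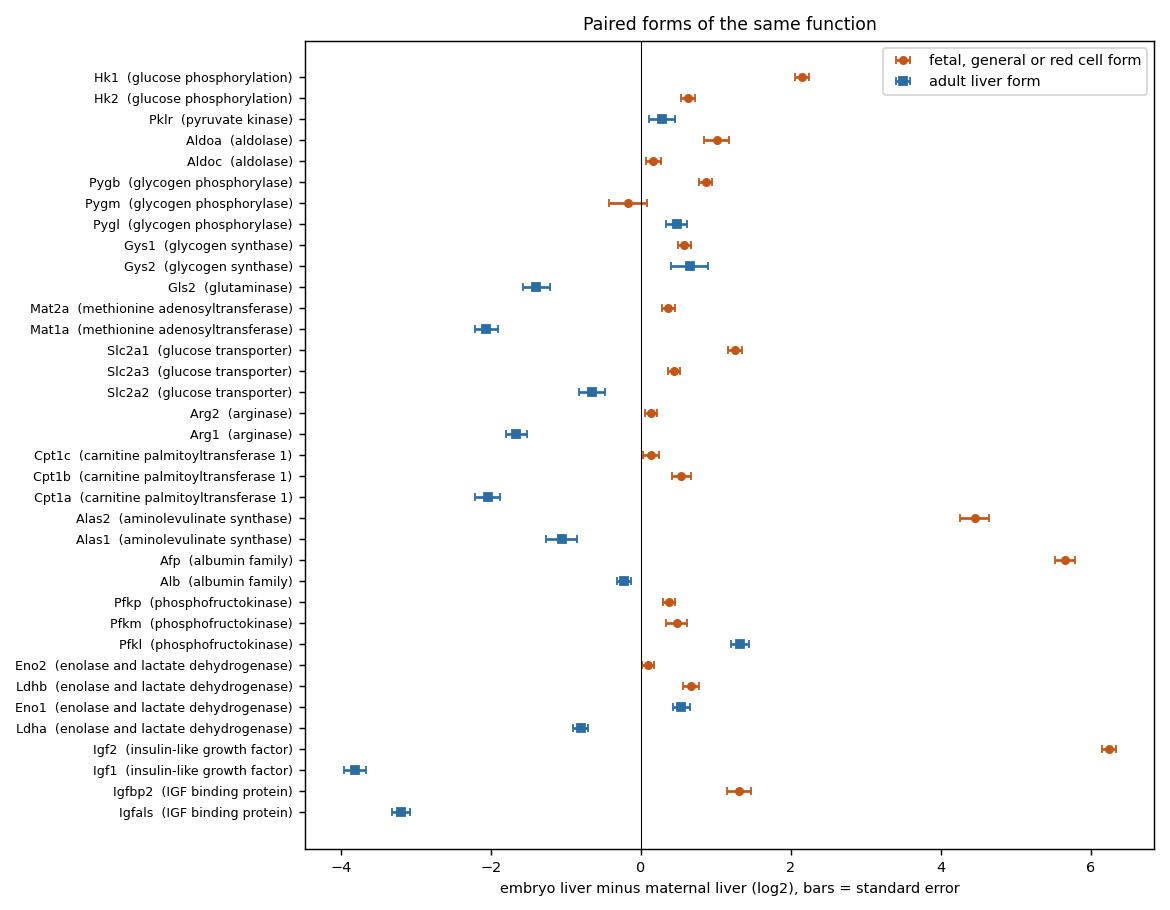
Embryo liver minus maternal liver (log2, horizontal axis) for fetal, general or red cell forms (orange circles) and adult liver forms (blue squares) of the same function. Bars are moderated standard errors from the fit over 4 pairs. Igf2, Afp and Alas2 lie farthest right and Igf1 and Igfals farthest left. Pfkl, Gys2, Eno1, Pygl and Pklr, plotted as adult liver forms, lie to the right of 0, and of these Gys2 and Pklr were not called.

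Plasma protein genes were lower for the most part, though several abundant ones were not called. Of 40 carriers, protease inhibitors and acute phase proteins 29 were lower and 2 higher, with a median difference of -1.17. Crp, C-reactive protein, was at 9.14, 9.26, 9.40 and 10.24 in embryo livers, against 13.74, 13.65, 14.52 and 14.59 in maternal livers (-4.61 ± 0.13, adjusted p = 4.93e-08). Orm1, the acid glycoprotein, differed by -4.14 ± 0.23, Mug1, a macroglobulin of adult rats, by -5.56 ± 0.19, and Serpina3n by -3.70 ± 0.18. A2m, alpha-2-macroglobulin, a fetal and acute phase protein of rats, was higher, at 14.28, 14.15, 14.34 and 14.30 in embryo livers, against 12.73, 12.06, 12.11 and 13.07 in maternal livers (1.78 ± 0.17, adjusted p = 4.63e-05). Fetuin Ahsg was at 14.41, 14.37, 14.29 and 14.35 in embryo livers and 14.35, 14.37, 14.28 and 14.39 in maternal livers (0.01 ± 0.09, adjusted p = 0.965). Ttr, the thyroid hormone carrier, was not called either (-0.01 ± 0.10), and Lcn2, a lipocalin of neutrophils and the acute phase, was the other higher gene (1.02 ± 0.11).

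Clotting and complement genes were lower as well. Of 36 genes 27 were lower and 1 was higher, F13a1 of blood cells (0.91 ± 0.10). C9, the last component of complement, differed by -3.10 ± 0.17, Hrg by -2.13 ± 0.10 and the clotting factor F10 by -1.80 ± 0.09. The 3 fibrinogen chains Fga, Fgb and Fgg were not called, and Fgg differed by -0.03 ± 0.09 (adjusted p = 0.841).

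Iron handling genes moved both ways, with 10 of 27 higher and 12 lower. Hamp, encoding hepcidin, the hormone that lowers plasma iron, was at 12.08, 12.25, 11.09 and 12.25 in embryo livers, against 8.40, 9.22, 8.84 and 8.38 in maternal livers (3.21 ± 0.23, adjusted p = 9.64e-06). Against the maternal livers of day 12, which ranged from 11.13 to 12.78, the difference of Hamp was -0.12. Mt2A, a metallothionein that binds zinc and copper, was at 14.31, 14.31, 14.23 and 14.35 in embryo livers, against 12.26, 11.54, 10.85 and 9.89 in maternal livers (3.16 ± 0.31, adjusted p = 6.76e-05). The embryo values lay within 0.2 of each other, and the maternal values were highest in the control and lowest with retinoic acid. Tfrc, the transferrin receptor, was higher by 1.69 ± 0.14, and Cp, ceruloplasmin, lower by 2.51.

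Of 30 retinoid genes 15 were lower and 1 was higher. That gene was Rbp2, a cellular retinol-binding protein, at 11.88, 11.79, 10.12 and 11.81 in embryo livers, against 7.23, 7.10, 7.04 and 7.60 in maternal livers (4.16 ± 0.24, adjusted p = 2.2e-06), with the EMD150 embryo liver lowest of its group. Cyp26a1, which breaks retinoic acid down, was at 6.47, 6.95, 6.82 and 6.54 in embryo livers, against 8.17, 9.43, 8.49 and 7.60 in maternal livers (-1.73 ± 0.19, adjusted p = 0.000126). Rarb, a retinoic acid receptor, differed by -1.87 ± 0.11, Rdh7 by -3.98 ± 0.21 and Aldh1a1, which makes retinoic acid, by -3.55 ± 0.20. Among 51 transcription factors and nuclear receptors of liver 31 were lower and 2 higher, Sox4 and Thra, of which none was called higher without the control, the EMD50 or the EMD150 pair. In those fits 1581, 1601 and 2121 of all 10411 genes were higher, against 2173 in the main fit. Hnf4a, a factor of hepatocyte identity, differed by -1.47 ± 0.12, Cebpb by -1.52 ± 0.14, Foxa2 by -1.37 ± 0.13 and Onecut1 by -2.06 ± 0.22. Prox1 (-0.27 ± 0.11) and Gata4 (-0.24 ± 0.10) were not called.

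The tissue difference had the same direction in all 4 treatment pairs for most genes called. Of 4297 called genes 4215 had the same sign in all pairs and 82 did not. Of 1044 genes called and at least 2-fold, 1043 had the same sign throughout, 1028 had groups without overlap, and 677 were at least 2-fold in each of the 4 pairs. A call itself asks for a difference that is large against an error drawn in part from its spread over these pairs. The counts among called genes are thus a description and no separate evidence. Over all genes, whether called or not, the embryo liver was higher in all 4 pairs for 31.1% and lower for 25%. Across the 15866 probe sets the difference in 1 pair correlated with that in another at Pearson's r of 0.859 to 0.934, a description over probe sets that share their arrays. The lowest r was that of the EMD150 and retinoic acid pairs, and the highest that of the control and EMD50 pairs. Whether a difference varied with treatment was not tested, and there was 1 array per tissue and treatment.

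**Figure D4:**
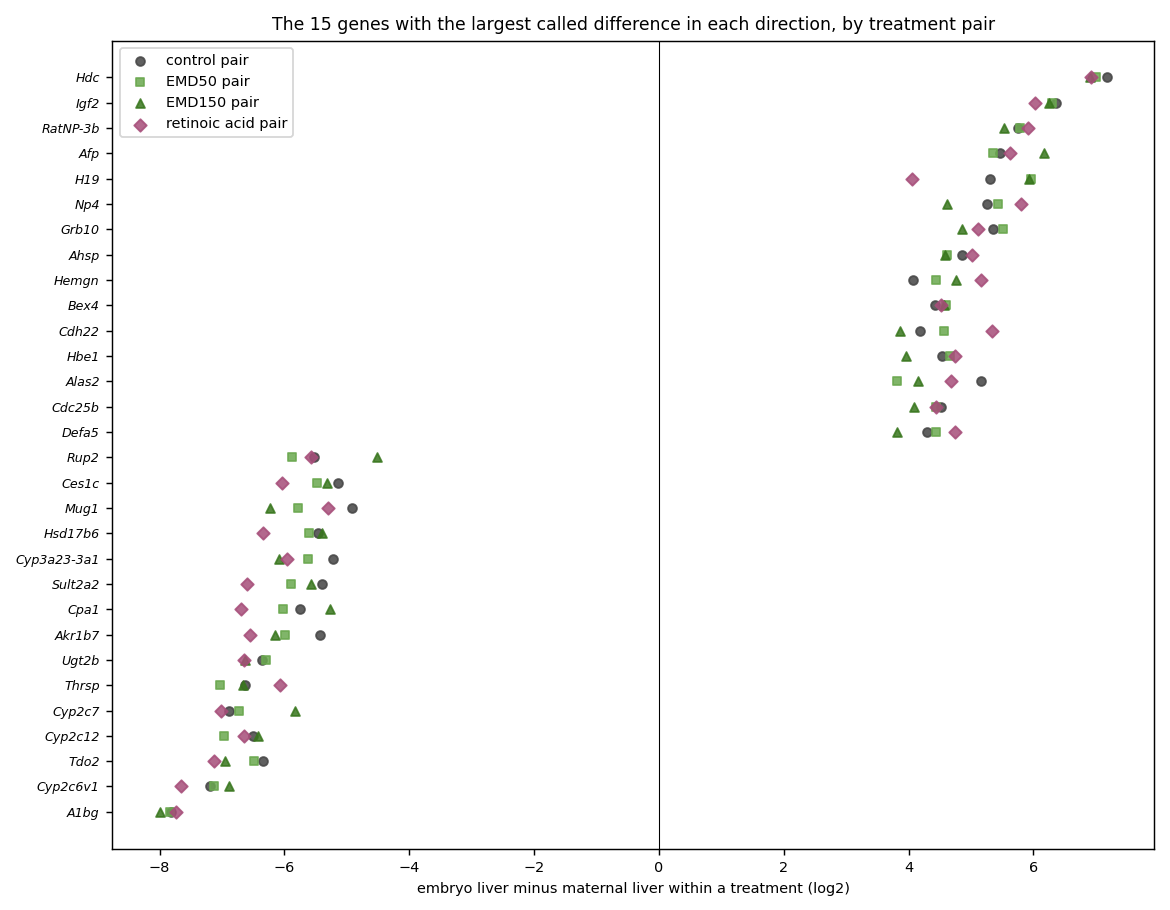
Embryo liver minus maternal liver within each treatment (log2, horizontal axis) for the 15 genes with the largest called difference in each direction (1 row each), with 1 symbol per treatment pair. The genes were chosen to have all 4 symbols on the same side of 0, and the 4 values of Igf2 run from 6.02 to 6.37.

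The 1 gene of at least 2-fold without the same sign was Hsd17b2, which inactivates sex steroids, at 10.99, 10.97, 10.32 and 11.08 in embryo livers, against 12.62, 12.39, 11.84 and 10.56 in maternal livers. The maternal retinoic acid value lay below that of the embryo, and the other 3 lay above theirs (-1.01 ± 0.31, adjusted p = 0.0333). Of the 82 called genes with mixed signs, those with the smallest p were Basp1, Cobll1, Xpr1, Nampt and Ctbp2, with differences of -0.71 ± 0.18, -0.99 ± 0.25, -0.60 ± 0.15, -0.62 ± 0.16 and 0.60 ± 0.16. In Basp1 and Ctbp2 the EMD150 pair had the other sign, in Cobll1 and Nampt the retinoic acid pair, and in Xpr1 the EMD50 pair. The median range of the difference over the 4 pairs was 0.64 for the 1044 genes, and 18 had a range of 2 or more. Dbp, a clock-controlled transcription factor, was 1 of the variable genes, at 7.0, 7.10, 7.47 and 6.70 in embryo livers, against 10.06, 9.80, 9.0 and 7.51 in maternal livers.

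The maternal liver of the retinoic acid group held muscle transcripts. In that array 58 genes (0.557%) were at least 2-fold above each of the other 3 maternal livers, and 28 of the 76 measured skeletal muscle genes were among them. The 12 genes farthest above the others were all muscle genes. Acta1, skeletal muscle actin, was at 12.83 in the retinoic acid maternal liver, against 6.58, 6.48 and 6.85 in the control, EMD50 and EMD150 maternal livers. Ckm, muscle creatine kinase, was at 11.30 there, against 7.39, 7.23 and 7.45 in the other 3. Myl1, a fast myosin light chain, was at 10.89, against 5.92, 5.75 and 5.80. In all 3 genes the other maternal livers lay within 0.4 of each other. Myl11, Tnnc2, Mb, Myh2, Myh4, Tnni2, Tnnt3, Atp2a1 and Tnnc1 exceeded the highest other maternal liver by 3.50, 3.44, 3.14, 2.93, 2.73, 2.60, 2.41, 2.29 and 2.07. The same array was above the other 3 in 55 of the 76 muscle genes, and the control maternal liver in 4. How many of all genes had either array highest was not counted, so these counts stand without a comparison. The summed linear level of the muscle list was 45668 in that array, against 18474 to 20140 in the other 3 maternal livers, and no value of any array lies at 0.

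Embryo livers held some muscle transcripts as well, with a summed level of 24095 to 27603. Acta1 was at 10.14, 10.76, 9.75 and 9.52 in embryo livers and Myl1 at 8.69, 9.29, 7.84 and 7.90, all above the 3 other maternal livers and all below the retinoic acid maternal liver. The difference was thus positive in the control, EMD50 and EMD150 pairs, at 3.56, 4.27 and 2.90 for Acta1, and -3.31 in the retinoic acid pair. This sign pattern held for 32 of the 76 muscle genes and for 447 of all 10411 genes. The median difference of the muscle list was 0.12, 0.27 and 0.18 in the first 3 pairs and -0.71 in the retinoic acid pair. Over the 4 pairs 6 of the 76 muscle genes were called higher and 1 lower, against 2173 and 2124 of all 10411 genes. Without the retinoic acid pair 22 muscle genes were higher and 1 lower, against 1846 and 2054 of all genes. The 6 were Myh3, Myh8, Tnni1, Tpm1, Tpm3 and Csrp3.

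The forms of muscle genes differed between the tissues. Mb, myoglobin, was at 6.22, 6.06, 6.15 and 5.95 in embryo livers, at 6.54, 6.11, 6.16 and 6.22 in embryo bones and at 9.21 in the retinoic acid maternal liver. Myh2 and Myh4, myosin heavy chains of adult fast muscle, were at 8.98 and 8.01 in that maternal liver, and their highest values in embryo livers were 5.83 and 5.27. Myh3, the embryonic myosin heavy chain, was at 7.76 in that maternal liver, against 8.03, 7.84 and 7.93 in the other 3, and at 8.44, 8.83, 8.33 and 8.18 in embryo livers and 13.38, 13.60, 13.49 and 13.60 in embryo bones. Tnni1, the slow troponin I, was higher in all embryo livers (2.48 ± 0.20, adjusted p = 2.03e-05). Myh1, an adult fast myosin gene, did not follow the others. It was at 12.09 in the retinoic acid maternal liver, against 11.34, 11.81 and 11.84 in the other 3, and was lower in embryo liver by 0.77. A1bg was at 14.19 in that maternal array, against 14.22, 14.12 and 14.0 in the control, EMD50 and EMD150 maternal livers. Alb, the highest probe set of all 4 and so possibly compressed, was at 15.13, against 15.18, 15.22 and 15.20.

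**Figure D5:**
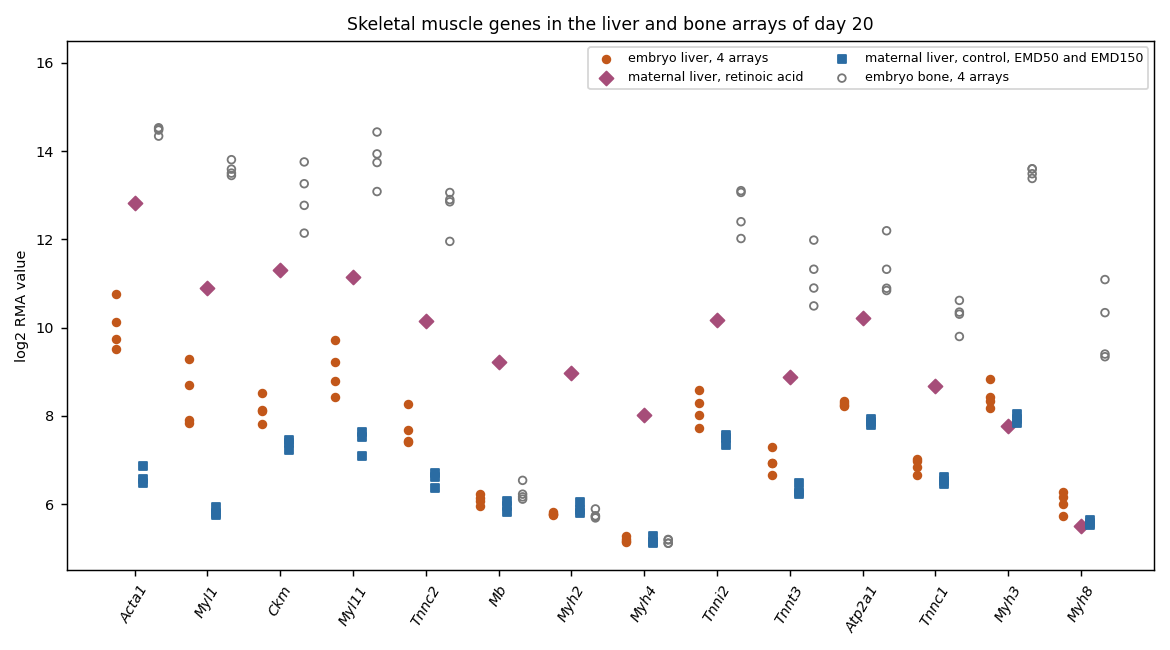
Log2 RMA value (vertical axis) of 14 skeletal muscle genes in the 4 embryo livers (orange circles), the retinoic acid maternal liver (purple diamond), the other 3 maternal livers (blue squares) and the 4 embryo bones (open circles). For Acta1 the diamond (12.83) lies above the embryo livers (9.52 to 10.76) and the other maternal livers (6.48 to 6.85), and for Myh3 it lies with the other maternal livers.

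In the same maternal array 7 genes (0.0672%) were at least 2-fold below each of the other 3. They included the clock gene Per2, at 7.56 there, against 9.42, 9.64 and 9.58 in the control, EMD50 and EMD150 maternal livers, Dbp, at 7.51 against 10.06, 9.80 and 9.0, and Por, at 9.90 against 11.45, 11.63 and 11.37. Nat8, Hsd17b2, Abcd3 and Spink1l completed the 7, and Mt2A, Mgll, Acot12, Mcrip2 and Alas1 followed with smaller deficits. Of these 12 genes all but Per2, Hsd17b2, Mt2A and Mcrip2 were lower in embryo liver in all 4 pairs, with the difference nearest to 0 in the retinoic acid pair. The 12 were chosen for a low value in that maternal array. That choice itself favours a difference near 0 in its pair, so the pattern is no separate result. The sources used here do not give the hour of sampling.

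Other arrays held genes of a further organ. In the control maternal liver 8 of 25 pancreatic acinar genes were at least 2-fold above the other 3 maternal livers, where 11 of all genes were (0.106%). Amy2a3, pancreatic amylase, was at 5.37, 5.52, 5.27 and 5.34 in embryo livers, against 8.42, 5.26, 5.26 and 5.30 in maternal livers. Without the control pair 4 of the 25 acinar genes were called higher in embryo liver, as were 1581 of all 10411 genes. With the control pair 1 acinar gene was called higher, and 2173 of all genes. Cpa1, by annotation a carboxypeptidase of the acinar cell, did not follow that pattern, at 6.47, 6.58, 6.62 and 6.25 in embryo livers, against 12.21, 12.60, 11.88 and 12.95 in maternal livers (-5.93 ± 0.20, adjusted p = 1.05e-07), and was high in all 4 maternal livers. In the control embryo liver 2 genes (0.0192%) stood at least 2-fold above the other 3, Cym and Pga5, both digestive proteases of the stomach, with Cym at 9.59, 6.08, 7.38 and 6.11 and Pga5 at 9.71, 7.59, 7.95 and 7.68.

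The EMD150 embryo liver was the array of its group with most low genes. It lay at least 2-fold below the other 3 embryo livers for 41 genes (0.394%) and above them for 9 (0.0864%). Serpina3c, a protease inhibitor of plasma, was at 10.92, 10.60, 8.53 and 11.30 in embryo livers, against 13.67, 13.75, 13.97 and 13.72 in maternal livers, and Gnmt, of methionine metabolism, at 11.74, 11.68, 10.18 and 11.84 against 12.24, 12.20, 11.87 and 11.97. Xist, the RNA of X inactivation, was at 8.86, 9.63, 6.64 and 11.41 in embryo livers, against 10.20, 10.58, 10.01 and 10.80 in maternal livers. The retinoic acid embryo liver lay above the other 3 for 53 genes (0.509%) and below for 1 (0.00961%). The highest gene there was Fabp7, a fatty acid-binding protein, at 9.36, 9.16, 9.15 and 11.17 in embryo livers.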

How the data were processed

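Each sample's RNA was measured on 1 single-colour expression array. The deposited log2 values of the series matrix come, per the submitters' processing notes, from the authors' use of RMA, robust averaging over the probes of a set. Its version, and whether the arrays were normalized in a single run, are not given in the sources. No filter on low values was set. The number of arrays limits the precision.

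Of the 15866 probe sets left after 57 array controls were dropped, 12783 carried 1 symbol in the platform's probe table, 312 several and 2771 none. Symbols were updated by Entrez identifier from the RefSeq table for GRCr8 (12748 matched), which also gave the promoters. Each gene stands by its probe set with the highest mean over the 8 liver arrays. The tissue difference was fitted in limma 3.58.1 (R 4.3.3) with the treatment as a block and a variance prior that follows intensity, leaving 3 residual degrees of freedom beside a prior of 5.59. Tests were two-sided, with Benjamini-Hochberg adjustment over 15866 probe sets and a call under 0.05. An exact permutation test over 4 pairs cannot go below p = 0.125. Embryo bone was compared with embryo liver in the same way. The code was tested on simulated data.

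The members, lists and motifs were chosen with earlier results of these data known. The text names the 15 largest called differences per direction with the same sign in all pairs, up to 5 called genes per list and direction, the marker and paired-form genes, the 12 genes highest and the 12 lowest in the retinoic acid maternal liver, and 5 called genes with mixed signs. It draws further genes from the lists with their values known. Alternatives were no block, no trend, robust eBayes, quantile normalization, median centring, a filter on the lowest 40% of probe sets, all 22 arrays, maternal livers of day 12, each pair left out, and the mean over a gene's probe sets.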

Additional observations from a re-analysis of the deposited data

Results flagged for a closer look

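In the 134 groups of 4 arrays tested (67 genes whose values are given by array, in either tissue), 28 arrays lay so far from the other 3 that the gap passed Dixon's critical value for 4 samples. Chance flags about 1 in 20 groups, but many of these genes were given because 1 array stood apart in them, so the number of flags is not to be read against that rate.

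The retinoic acid maternal liver accounts for 14 of them, all in genes chosen because that array stood highest or lowest. It stood high for the muscle genes Acta1 (12.83), Ckm (11.30), Myl1 (10.89), Myl11 (11.14), Tnni2 (10.17), Atp2a1 (10.21), Tnnc2 (10.14), Mb (9.21), Myh2 (8.98), Tnnt3 (8.89), Tnnc1 (8.68) and Myh4 (8.01), on the log2 scale. It stood low for Per2 (7.56) and Por (9.90).

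The EMD150 embryo liver stood low for Cyp7a1 (8.45), Gnmt (10.18), Hamp (11.09), Hsd17b2 (10.32), Rbp2 (10.12) and Ghr (6.71). The retinoic acid embryo liver stood high for Fabp7 (11.17), Lpl (11.11) and Mki67 (11.44), and low for Hdc (13.41), where the gap to the next embryo liver was only 0.29.

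Among the other maternal livers, the control stood high for Amy2a3 (8.42), EMD50 stood low for Mki67 (6.54), and EMD150 stood low for Apoa1 (14.32) and S100a8 (5.37). The gaps for Apoa1 and S100a8 were 0.12 and 0.06.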

How the results depend on the processing

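Counts of probe sets called between embryo and maternal liver stayed within 1.5 times the reported ones under every alternative tried. Called higher were 2143 to 3126 of them under all alternatives that kept the maternal livers of day 20, against 3042 as reported, and called lower 2312 to 3189, against 2907. With the maternal livers of day 12 they were 4271 and 3287. Leaving out 1 treatment pair gave 2143 to 2998 higher and 2312 to 2780 lower. The limma fit without the treatment block, which pairs the tissues by replicate number, called 2326 higher and 2382 lower. Centring each array on its median called 2563 higher and 3189 lower. Between embryo liver and embryo bone, 3603 probe sets were called higher, but 1936 without the lowest 40% of probe sets, where fewer were tested, and 1971 to 3564 with 1 treatment pair left out, lowest without the control pair, and the cause was not tested.

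Of 166 called genes whose difference is given, 20 lost the call under at least 1 alternative and 4 changed sign. With the maternal livers of day 12 the differences were 1.19 for Apoa1, -0.12 for Hamp, 0.87 for Hsd17b2 and 0.11 for Nampt. In that fit only Apoa1 was called in the new direction (limma adjusted p = 2.7e-05), while Hamp, Hsd17b2 and Nampt were not called. Uncalled genes near 0 also changed sign, with the maternal livers of day 12 (0.16 for Alad, 0.081 for Fgg, 0.11 for Ttr), with quantile normalization (0.015 for Alad, 0.0078 for Fgg, 0.27 for Otc, 0.029 for Ttr) and with median centring (-0.032 for Ahsg). With 1 treatment pair left out, the differences ran from -0.011 to 0.021 for Ahsg, from -0.13 to 0.18 for Otc and from -0.054 to 0.020 for Ttr. Quantile normalization left 66 probe sets at least 2-fold higher in the retinoic acid maternal liver than in each other maternal liver, against 91, and 26 skeletal muscle genes, against 28.

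Counts of called list genes moved by over 1.5 times in other cases as well, of which only some are given here. The counts over all 10411 genes moved too, from 2173 called higher and 2124 lower as reported. They were 1875 and 1943 over all 22 arrays, 1708 and 1739 without the treatment block, and 2326 and 1981 with quantile normalization. Median centring gave 1878 and 2325, the maternal livers of day 12 gave 2981 and 2310, and leaving out the EMD150 pair gave 2121 and 1976. In the fit over all 22 arrays, 9 lipoprotein genes were lower (15 as reported), 3 resident liver cell genes higher (5), 1 myeloid gene lower (2) and no liver transcription factor higher (2). Without the treatment block, 5 conjugation and transporter genes (8), 2 P450 genes (4) and 1 liver transcription factor (2) were higher, and 1 myeloid gene was lower (2). Quantile normalization gave 6 higher amino acid genes (3) and 3 higher retinoid genes (1), and median centring no higher transcription factor. With the maternal livers of day 12, 36 muscle genes (6), 5 lymphocyte genes (1), 4 retinoid genes (1) and 4 transcription factors (2) were higher. Without the EMD150 pair 1 red cell gene was lower, and 3 muscle genes (1). The causes were not tested.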
